A study of Mus musculus with 10 samples.

Results

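The genes described here are S1pr1, S1pr4, Klf2, Klf3, Ccr7 and Cd69. Their list was drawn up around whether a lymphocyte leaves a tissue, stays in it or enters a lymph node (LN). The genes were chosen by symbol, through the Ensembl identifiers of the count table, and all 6 were found among its 21556 gene rows. RNA was sequenced from regulatory T cells (Tregs), the Foxp3-dependent suppressive CD4 T cells, sorted from mice 10 weeks old that bore a melanoma line able to induce lymphatic vessels. The sort took cells by red fluorescent protein from tumor or LN, and which LN was taken is not given in the sources used here. The groups were tumor of MHCII-deleted mice (2 libraries), tumor of control mice (3 libraries), LN of MHCII-deleted mice (2 libraries) and LN of control mice (3 libraries). Control mice were MHCIIfl/fl and Prox1-Cre negative, so they carried a floxed MHC class II allele without the recombinase. MHCII-deleted mice were MHCIIdeltaProx-1 and Prox1-Cre positive. Their Cre is driven by Prox1, a transcription factor of lymphatic endothelium, so the allele is meant to be lost from lymphatic endothelium. The sorted Tregs are not the targeted cells, and their RNA cannot show whether the allele was lost. The design asks how Tregs of tumor differ from Tregs of LN, and whether either depends on antigen presentation by lymphatic vessels.

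Lymphocytes leave tissues along a gradient of sphingosine 1-phosphate (S1P), which is low in tissue and high in lymph and blood, and S1PR1 is the receptor that reads it. CD69, a surface protein made soon after activation, binds S1PR1 and takes it off the surface, while the transcription factor KLF2, itself driven by FOXO1, activates S1pr1. CCR7 guides cells into LN and into lymphatic vessels toward the chemokines CCL19 and CCL21, S1PR4 is a further S1P receptor of lymphoid cells, and KLF3 is a repressor of the same zinc finger family as KLF2.

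The libraries held 28539329 to 35736175 counts each, and 12825 to 14703 genes were detected per library. Levels are given as CPM, counts relative to library size after TMM scaling for RNA composition. The limit set by 3 counts was 0.0809 to 0.107 CPM, and it covers counting error only. Foxp3 averaged 346 ± 5.07 CPM in tumor of MHCII-deleted mice (SD, n = 2) and 738 ± 85.9 CPM in tumor of control mice (SD, n = 3). Its LN means were 617 ± 52.4 CPM in MHCII-deleted mice (SD, n = 2) and 687 ± 53.4 CPM in control mice (SD, n = 3). No group mean of Cd8a exceeded 7.46 CPM, and the markers of CD8 T and NK cells summed to 46.8 to 99.3 CPM per library. RNA of other cells differed between the tumor groups: 12 melanoma markers summed to 19249 to 23543 CPM in tumor of MHCII-deleted mice and to 4860 to 9472 CPM in tumor of control mice, against at most 34.5 CPM in any LN library. Macrophage and monocyte markers summed to 430 and 459 CPM in tumor of MHCII-deleted mice and 116 to 224 CPM in tumor of control mice. Stromal markers summed to 279 and 683 CPM in tumor of MHCII-deleted mice and to 464, 4216 and 2561.5 CPM in tumor of control mice. A list of 24 pan-T cell genes, expressed in T cells of any kind, added up to 7942 ± 1110 CPM in tumor of MHCII-deleted mice (SD, n = 2) and 17524 ± 294 CPM in tumor of control mice (SD, n = 3). In LN its sum was 18746 ± 107 CPM in MHCII-deleted mice (SD, n = 2) and 18886 ± 449.7 CPM in control mice (SD, n = 3). Fewer T cells and less RNA per T cell cannot be told apart in such bulk samples. Counts of called members and listed genes in comparisons with tumor of MHCII-deleted mice are therefore also given with libraries scaled to the pan-T cell genes. That scaling moved the median log2 change of all tested genes to 1.32 between tumor and LN of MHCII-deleted mice and to 1.26 between the genotypes in tumor, where TMM gave 0.07 and 0.10. It moved the median to 0.19 between tumor and LN of control mice, where TMM gave 0.08, and to 1.13 for the difference of genotype effects, where TMM gave -0.01. It called 9133 of 13920 tested genes higher between tumor and LN of MHCII-deleted mice, and 9458 between the genotypes in tumor. Counts of listed genes called higher under that scaling stand against these shares. The labels do not say whether replicates are separate animals, so the p-values measure only the spread between these libraries.

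The 6 transcripts differ in GC content, a property that the Klf2 result moved with. The highest GC content of any 100-base window of a transcript was 86% for Klf2, 82% for Klf3, 74% for S1pr4, 69% for S1pr1, 68% for Ccr7 and 58% for Cd69. To show this range, the most GC-rich coding windows of Klf2, Klf3 and Cd69 are printed from the GRCm38 genome, 5′ to 3′ along the transcript, with uninterrupted runs of at least 6 G or C bases in capitals. They lie at chr8:72319834-72319933 (plus strand, exon 2 of 3 of Klf2), chr5:64822020-64822119 (plus strand, exon 3 of 6 of Klf3) and chr6:129268267-129268366 (minus strand, exon 5 of 5 of Cd69).
Klf2 window: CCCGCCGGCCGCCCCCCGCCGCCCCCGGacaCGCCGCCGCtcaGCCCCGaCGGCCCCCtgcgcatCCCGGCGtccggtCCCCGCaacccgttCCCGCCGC
Klf3 window: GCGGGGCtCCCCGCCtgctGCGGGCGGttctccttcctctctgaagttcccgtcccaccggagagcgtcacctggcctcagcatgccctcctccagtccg
Cd69 window: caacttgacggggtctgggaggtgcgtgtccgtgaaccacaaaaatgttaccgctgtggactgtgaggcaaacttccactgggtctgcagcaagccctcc
The Klf2 window is 86% GC, and 72 of its 100 bases stand in 7 such runs, the longest of 28 bases. The Klf3 window is 70% GC with 22 bases in 3 runs, and the 82% window of that transcript lies before or across the start codon. The Cd69 window is 57% GC and holds 0 such runs.

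In control mice, Tregs of tumor carried less S1pr1 and more Cd69 and Ccr7 RNA than Tregs of LN. In MHCII-deleted mice, S1pr1, S1pr4 and Klf3 were lower in tumor than in LN. Within tumor, S1pr1, S1pr4 and Cd69 were lower in MHCII-deleted than in control mice. None of these 6 calls in comparisons with tumor of MHCII-deleted mice held with scaling to the pan-T cell genes, and S1pr1 within tumor turned to a higher level. In LN the only member that differed between the genotypes was Klf2, which was higher in MHCII-deleted mice. A gene was called at a Benjamini-Hochberg adjusted p under 0.05 in edgeR's quasi-likelihood test over all 13920 tested genes. Between tumor and LN of control mice 2 members were higher and 1 lower, where 38.9% of all genes were called (22.8% higher, 16.1% lower). Between tumor and LN of MHCII-deleted mice 0 members were higher and 3 lower, where 44.4% of all genes were called (24.3% higher, 20.1% lower). Pan-T cell scaling gave 2 members higher and 0 lower there, where it called 9133 of the 13920 tested genes higher and 295 lower. For the genotypes in tumor 0 members were higher and 3 lower, where 28.7% of all genes were called (15% higher, 13.7% lower). With pan-T cell scaling 4 members were higher and 0 lower, where 9458 of the 13920 tested genes were called higher and 42 lower. For the genotypes in LN 1 member was higher and 0 lower, where 1.11% of all genes were called (1.07% higher, 0.0359% lower). Without that scaling, edgeR at an unadjusted p under 0.05 also gave 0 members higher in the comparisons with tumor of MHCII-deleted mice and 0 lower in LN, and so did DESeq2 and limma-voom. In both comparisons with tumor of MHCII-deleted mice, 3 of 6 members lower lay above the shares of 20.1% and 13.7%, but pan-T cell scaling left 0 lower. With so few members these counts are not read as a result about the 6 genes as a set. In LN, Klf2 stands against 1.07%. The comparisons share libraries with each other.

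**Figure D1:**
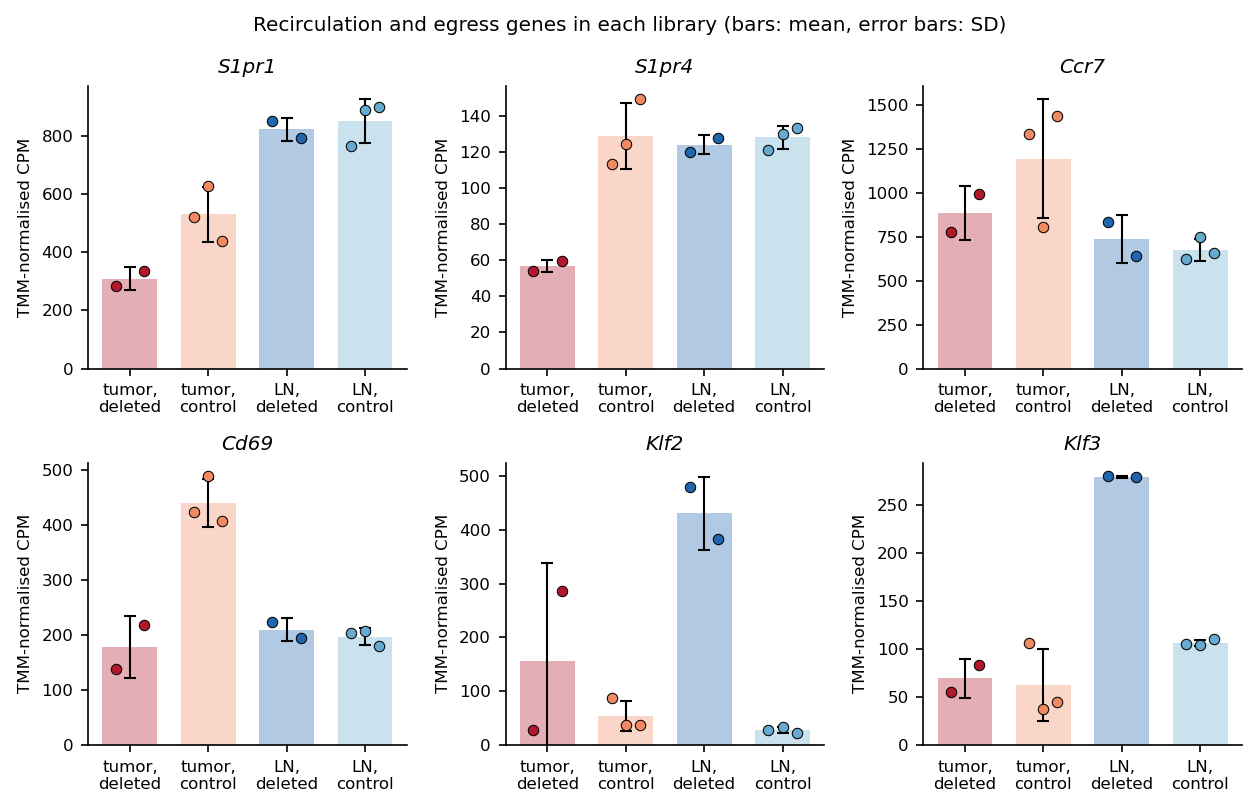
TMM-normalised CPM of the 6 genes in each of the 10 libraries, with group means as bars and the SD as error bars (the lower end of the SD for Klf2 in tumor of MHCII-deleted mice falls below 0 and is not drawn). S1pr1 stood at 282 to 336 CPM in tumor of MHCII-deleted mice and at 764 to 897 CPM in LN, and the 2 tumor libraries of MHCII-deleted mice lay far apart for Klf2, at 285 and 27.2 CPM.

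S1pr1 (ENSMUSG00000045092, chromosome 3, 115710433 to 115715072, minus strand), the egress receptor, had 282 and 336 CPM in tumor of MHCII-deleted mice and 522, 627 and 439 CPM in tumor of control mice. In LN it had 850 and 793 CPM in MHCII-deleted mice and 764, 888 and 897 CPM in control mice. All tumor libraries lay below all LN libraries, the tumor groups did not overlap, and the LN groups did. In MHCII-deleted mice S1pr1 was 2.66-fold lower in tumor than in LN, a log2 fold change of -1.41 ± 0.17 (SE; edgeR, adjusted p = 0.000108). In control mice it was 1.61-fold lower in tumor (log2 -0.68 ± 0.13, edgeR, adjusted p = 0.00296). Between the genotypes the change was -0.78 ± 0.15 in tumor (edgeR, adjusted p = 0.00494) and -0.05 ± 0.15 in LN (edgeR, adjusted p = 1). The difference of these genotype effects, -0.73 ± 0.21, did not pass the test (edgeR, adjusted p = 0.0538), although 6 of its 19 alternatives called it (adjusted p over all of them 0.0225 to 0.165). Those 6 were DESeq2, no filter on low counts, both GC corrections, and the fits without replicate 2 of tumor of MHCII-deleted mice (-0.86) or replicate 3 of tumor of control mice (-0.84). With pan-T cell scaling the sign of this difference turned to 0.40 (edgeR, adjusted p = 0.138).

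Scaled to the pan-T cell genes, S1pr1 kept its lower level in tumor of control mice (log2 -0.57, edgeR, adjusted p = 0.0073). The difference between tumor and LN of MHCII-deleted mice shrank to -0.17 (edgeR, adjusted p = 0.365), and the sign between the genotypes in tumor turned to 0.37 (edgeR, adjusted p = 0.0444). Per 1000 counts of pan-T cell genes, S1pr1 had 39.4 and 38.5 counts in tumor of MHCII-deleted mice and 29.3, 36.4 and 25.1 in tumor of control mice, and in LN it had 45.2 and 42.5 in MHCII-deleted mice and 41.5, 46.0 and 47.4 in control mice. On this scale the tumor libraries again lay below those of LN, and the tumor groups stood in the opposite order without overlap. Over all 20 alternatives, the adjusted p between the genotypes in tumor ran from 2.95e-05 to 0.105. It ran from 1.38e-12 to 0.365 between tumor and LN of MHCII-deleted mice and from 3.81e-05 to 0.269 between tumor and LN of control mice.

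S1pr4 (ENSMUSG00000044199, chromosome 10, 81497747 to 81500132, minus strand), the lymphoid S1P receptor, had 54.3 and 59.4 CPM in tumor of MHCII-deleted mice and 114, 124 and 149 CPM in tumor of control mice. In LN it had 120 and 128 CPM in MHCII-deleted mice and 121, 130 and 134 CPM in control mice. The tumor libraries of MHCII-deleted mice stood alone below all others, while the other 3 groups overlapped. The log2 change between the genotypes in tumor was -1.18 ± 0.13, 2.27-fold lower (edgeR, adjusted p = 0.00033), and that between tumor and LN of MHCII-deleted mice was -1.13 ± 0.14 (edgeR, adjusted p = 0.000158). In control mice the change between tumor and LN was 0.01 ± 0.11 (edgeR, adjusted p = 0.962), and between the genotypes in LN it was -0.05 ± 0.13 (edgeR, adjusted p = 1). The genotype effect differed between tumor and LN by -1.13 ± 0.18 (edgeR, adjusted p = 0.00625).

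Per 1000 counts of pan-T cell genes, S1pr4 had 7.59 and 6.80 counts in tumor of MHCII-deleted mice, 6.38, 7.21 and 8.51 in tumor of control mice. The LN values were 6.39 and 6.84 in MHCII-deleted mice and 6.58, 6.73 and 7.05 in control mice. All groups overlapped on this scale. The genotype change in tumor was then -0.03 (edgeR, adjusted p = 0.847) and the change between tumor and LN of MHCII-deleted mice 0.12 (edgeR, adjusted p = 0.512). The difference of genotype effects was 0.0028 (edgeR, adjusted p = 0.9999; range over 19 alternatives 8.49e-06 to 0.9999). Over the 20 alternatives the adjusted p between the genotypes in tumor ran from 1.15e-13 to 0.847, and that between tumor and LN of MHCII-deleted mice from 1.35e-09 to 0.512.

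Of the 13 other S1P genes (receptors S1pr2, S1pr3 and S1pr5 and the enzymes and transporters that make, export or break down S1P), 12 were tested. In control mice 4 were higher and 1 lower in tumor than in LN (median log2 0.96, against 0.08 over all genes). In MHCII-deleted mice 6 were higher and 1 lower (median 1.501, against 0.07), or 7 higher and 0 lower with pan-T cell scaling. Sphk2, a kinase that makes S1P, was lower in tumor of control mice (log2 -0.64 ± 0.17, edgeR, adjusted p = 0.0131), although scaling to the pan-T cell genes ended that call (-0.53, edgeR, adjusted p = 0.0786). The other kinase, Sphk1, stood at 17.9 ± 9.03 CPM in tumor of MHCII-deleted mice (SD, n = 2) and 3.88 ± 0.54 CPM in tumor of control mice (SD, n = 3), a log2 change of 2.20 ± 0.51 (edgeR, adjusted p = 0.0125). Sphk1 had a count of 0 in both LN libraries of MHCII-deleted mice, which allows up to 0.0852 and 0.0965 CPM, so no fold is given there. Within tumor 3 of the 12 genes were higher in MHCII-deleted mice and 0 lower (median 0.58, against 0.10), with 0 lower also at an unadjusted p under 0.05 and by DESeq2 and limma-voom. Pan-T cell scaling gave 8 higher and 0 lower. The 3 were Sphk1, the lipid phosphatase Plpp2 (log2 1.13 ± 0.35, edgeR, adjusted p = 0.038) and S1pr2, a receptor that holds cells back (log2 0.60 ± 0.16, edgeR, adjusted p = 0.0221). S1pr2 averaged 80.7 ± 7.78 CPM in tumor of MHCII-deleted mice (SD, n = 2) and 53.3 ± 9.84 CPM in tumor of control mice (SD, n = 3). In LN it averaged 46.1 ± 3.31 CPM in MHCII-deleted mice (SD, n = 2) and 55.4 ± 3.53 CPM in control mice (SD, n = 3). Of the 12 genes, edgeR called 0 between the genotypes in LN, while 1 had an unadjusted p under 0.05 and DESeq2 and limma-voom called 1 each.

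Cd69 (ENSMUSG00000030156, chromosome 6, 129267325 to 129275436, minus strand), the activation protein that opposes S1PR1, had 138 and 217 CPM in tumor of MHCII-deleted mice and 423, 489 and 407 CPM in tumor of control mice. In LN it had 224 and 195 CPM in MHCII-deleted mice and 204, 208 and 180 CPM in control mice. The tumor libraries of control mice stood above all others, and the other 3 groups overlapped. Cd69 was 2.23-fold higher in tumor than in LN of control mice (log2 1.16 ± 0.16, edgeR, adjusted p = 0.000369), and the change in MHCII-deleted mice was -0.24 ± 0.19 (edgeR, adjusted p = 0.332). Between the genotypes it was 2.48-fold lower in tumor of MHCII-deleted mice (log2 -1.31 ± 0.18, edgeR, adjusted p = 0.000967), and the change in LN was 0.09 ± 0.18 (edgeR, adjusted p = 1). The genotype effects differed by -1.40 ± 0.25 (edgeR, adjusted p = 0.0099). Without replicate 2 of tumor of MHCII-deleted mice, the change between tumor and LN of those mice became -0.61 (edgeR, adjusted p = 0.0134).

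Scaled to the pan-T cell genes, Cd69 was higher in tumor than in LN of MHCII-deleted mice as well (log2 0.98, edgeR, adjusted p = 0.000455), and the genotype change in tumor was -0.19 (edgeR, adjusted p = 0.293). Cd69 per 1000 such counts was 19.2 and 24.9 in tumor of MHCII-deleted mice and 23.7, 28.4 and 23.2 in tumor of control mice, against 11.9 and 10.4 in LN of MHCII-deleted mice and 11.1, 10.8 and 9.51 in LN of control mice. All tumor libraries then lay above all LN libraries, and the tumor groups overlapped. The adjusted p between the genotypes in tumor ran from 3.85e-10 to 0.293 over the 20 alternatives, and that between tumor and LN of MHCII-deleted mice from 0.000455 to 0.835.

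The ratio of Cd69 to S1pr1 counts within a library needs no scaling between libraries, but it keeps any effect of GC content that differs between these transcripts. On the log2 scale it was -1.03 and -0.63 in tumor of MHCII-deleted mice and -0.30, -0.36 and -0.11 in tumor of control mice. In LN it was -1.92 and -2.02 in MHCII-deleted mice and -1.91, -2.10 and -2.32 in control mice. Every tumor library lay above every LN library, and in tumor both libraries of MHCII-deleted mice lay below the 3 of control mice. As a plain ratio, Cd69 stood at 0.567 ± 0.112 of S1pr1 in tumor of MHCII-deleted mice (SD, n = 2) and 0.839 ± 0.078 in tumor of control mice (SD, n = 3). The LN ratios were 0.255 ± 0.013 in MHCII-deleted mice (SD, n = 2) and 0.234 ± 0.033 in control mice (SD, n = 3). These are descriptions of counts and were not tested. The curve of log2 level on window GC given with Klf2, read at the Cd69 window, stood at -0.31 and -0.26 in tumor of MHCII-deleted mice. It stood at 0.025, -0.05 and -0.06 in tumor of control mice and at 0.05 to 0.17 in LN. At the S1pr1 window it lay between -0.045 and 0.049 in all libraries. The part of GC content in the ratio was not tested. Endothelial cells also express S1pr1. Of the blood endothelial markers, Pecam1 had 61.8 and 71.7 CPM in tumor of MHCII-deleted mice and 79.0 to 99.8 CPM in tumor of control mice, below the 179.6 CPM or more of each LN library. Cdh5 had 2.89 and 11.7 CPM in tumor of MHCII-deleted mice, 0 to 1.44 CPM in control tumor, and no more than 0.0322 CPM in any LN library. The 12 blood endothelial markers summed to 174 and 325 CPM in tumor of MHCII-deleted mice and 105 to 155 CPM in tumor of control mice, against 194 and 216 CPM in LN of MHCII-deleted mice and 181 to 215 CPM in LN of control mice. Pecam1 alone was most of each LN sum, so that sum by itself does not show how much endothelial RNA the LN libraries held. The 8 lymphatic endothelial markers summed to 251 and 449 CPM in tumor of MHCII-deleted mice and 55.2 to 68.5 CPM in tumor of control mice, against at most 3.61 CPM in LN. Of these, Lyve1, Flt4 and Nrp2 were called higher in tumor of MHCII-deleted than of control mice (log2 3.92, 3.79 and 2.18). Pdpn, Ccl21a, Mmrn1 and Prox1 were not called there, with Prox1 at log2 0.09 ± 0.75 (edgeR, adjusted p = 0.94). Reln was not tested. The part of both lists in the S1pr1 values was not tested.

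**Figure D2:**
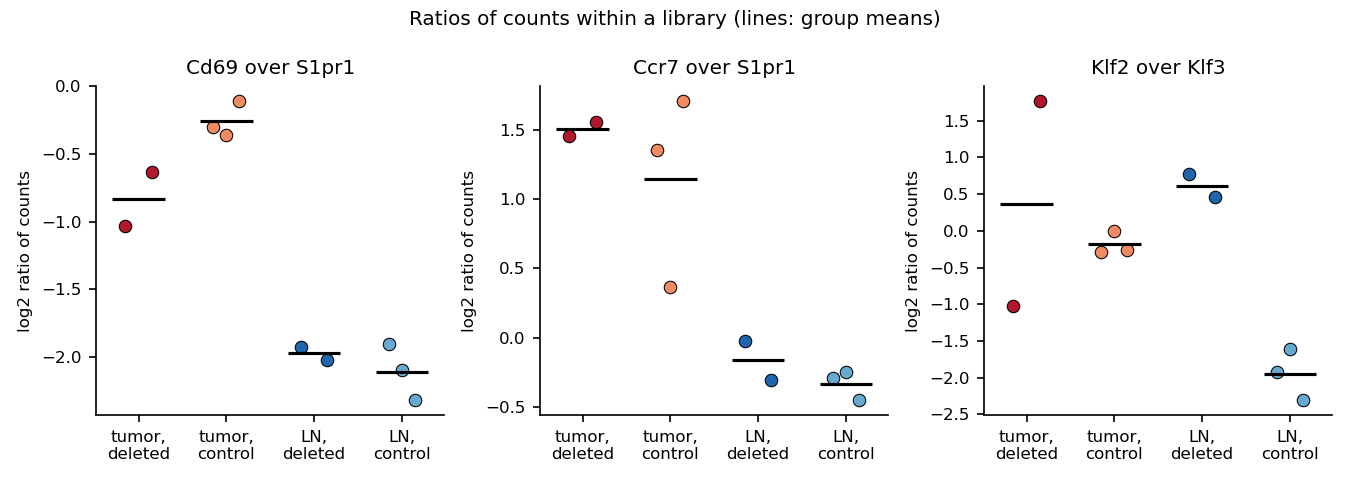
Log2 ratios of counts within each library for 3 pairs of genes, with 1 point per library and a line at the group mean. For Cd69 over S1pr1 the tumor libraries lay between -1.03 and -0.11 and the LN libraries between -2.32 and -1.91. For Ccr7 over S1pr1 all tumor libraries were above 0.36 and all LN libraries below 0, and Klf2 over Klf3 was below -1.61 in every LN library of control mice.

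Genes known from tissue retention and residency are given next, followed by an immediate early list that also rises when tissue is digested into single cells. Of 14 tested retention genes, 10 were higher and 1 lower in tumor than in LN of control mice (median log2 2.41, against 0.08 over all genes). The transcription factor Bhlhe40 averaged 1748 CPM in tumor of MHCII-deleted mice, 2799 CPM in tumor of control mice, 131 CPM in LN of MHCII-deleted mice and 137 CPM in LN of control mice. Its log2 change between tumor and LN was 3.74 ± 0.13 in MHCII-deleted mice (edgeR, adjusted p = 6.42e-07) and 4.36 ± 0.11 in control mice (edgeR, adjusted p = 2.6e-08). Rgs2 and Rgs1, which dampen G protein signals, were higher in tumor of control mice by 5.09 ± 0.17 and 2.53 ± 0.14 (edgeR, adjusted p = 9.05e-08 and 1.25e-06), and the chemokine receptor Ccr8 by 2.58 ± 0.14 (edgeR, adjusted p = 1.08e-06). In MHCII-deleted mice 6 were higher and 1 lower, or 13 higher and 1 lower with pan-T cell scaling. The lower one was P2rx7, a channel opened by extracellular ATP (log2 -2.12 ± 0.19, edgeR, adjusted p = 2.39e-05). Cxcr6, a receptor of tissue-resident cells, was higher in tumor of these mice by 3.32 ± 0.25 (edgeR, adjusted p = 8.43e-06). In control mice too, mean Cxcr6 was higher in tumor (867 CPM, against 73.8 CPM in LN) and mean P2rx7 lower (42.3 against 125 CPM). In tumor 0 were higher and 9 lower in MHCII-deleted than in control mice (median -0.97, against 0.10), with 0 higher also at an unadjusted p under 0.05 and by DESeq2 and limma-voom. Rgs1, Ccr8, Rgs2 and Cxcr6 stood at -1.44 ± 0.16, -1.32 ± 0.16, -1.13 ± 0.16 and -1.43 ± 0.22 (edgeR, adjusted p = 0.000298, 0.000419, 0.00107 and 0.00154). With pan-T cell scaling 3 of the list were higher and 0 lower. In LN, Cxcr6 was the 1 retention gene called, at 32.3 CPM in MHCII-deleted mice and 73.8 CPM in control mice (log2 -1.19 ± 0.22, edgeR, adjusted p = 0.046), and the GC offset described with Klf2 ended that call (-1.13, edgeR, adjusted p = 0.0683).

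Cd69 is itself induced by activation, so the immediate early genes are given beside it. Of 16, 10 were higher and 2 lower in tumor than in LN of MHCII-deleted mice (median log2 1.44), or 14 and 2 with pan-T cell scaling, and 14 were higher and 2 lower in tumor than in LN of control mice (median 3.00). In tumor edgeR called 0 higher and 8 lower in MHCII-deleted mice (median -1.15), while 1 was higher at an unadjusted p under 0.05, limma-voom called 1 higher and DESeq2 0, and pan-T cell scaling gave 4 higher and 0 lower. The summed level was 5926 and 8446 CPM in tumor of MHCII-deleted mice and 13523 to 16073 CPM in tumor of control mice. The LN sums were 3202 and 3248 CPM in MHCII-deleted mice and 2731 to 3133 CPM in control mice. Its part in the Cd69 levels was not tested. In control mice the AP-1 subunits Junb and Fosb were higher in tumor by 2.98 ± 0.15 and 5.29 ± 0.34, the nuclear receptor Nr4a1 by 3.02 ± 0.16 and the stress factor Atf3 by 8.25 ± 0.53 (edgeR, adjusted p = 7.94e-07, 2.84e-06, 9.03e-07 and 3.91e-06). Egr3, a factor induced through the T cell receptor, was lower in tumor of MHCII-deleted mice than in their LN (log2 -3.70 ± 0.35, edgeR, adjusted p = 2.93e-05). In control mice Egr3 was lower in tumor as well (log2 -2.08 ± 0.27, edgeR, adjusted p = 0.000237). In tumor of MHCII-deleted mice, Junb was lower than in control mice by 1.34 ± 0.17 and Ier2, Btg2 and Zfp36 by 1.25 ± 0.18, 1.18 ± 0.17 and 1.19 ± 0.18 on the log2 scale (edgeR, adjusted p = 0.000534, 0.00104, 0.00124 and 0.00142). In LN 2 were higher in MHCII-deleted mice, Jun by 0.58 ± 0.11 and the phosphatase Dusp1 by 1.15 ± 0.22 (edgeR, adjusted p = 0.0497 for each). With the GC offset neither was called, although their changes hardly moved, to 0.576 and 1.06 (edgeR, adjusted p = 0.0794 and 0.0722).

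Ccr7 (ENSMUSG00000037944, chromosome 11, 99144196 to 99155077, minus strand), the LN homing receptor, had 775 and 992 CPM in tumor of MHCII-deleted mice and 1337, 808 and 1438 CPM in tumor of control mice. In LN it had 836 and 641 CPM in MHCII-deleted mice and 623, 746 and 656 CPM in control mice. In control mice all tumor libraries exceeded all LN libraries, while in MHCII-deleted mice tumor and LN overlapped, and replicate 2 of tumor of control mice lay among the tumor libraries of MHCII-deleted mice. Ccr7 was 1.77-fold higher in tumor than in LN of control mice (log2 0.82 ± 0.21, edgeR, adjusted p = 0.0112). In MHCII-deleted mice the change was 0.26 ± 0.25 (edgeR, adjusted p = 0.425), and between the genotypes it was -0.43 ± 0.23 in tumor (edgeR, adjusted p = 0.185) and 0.13 ± 0.23 in LN (edgeR, adjusted p = 1). The difference of genotype effects was -0.56 ± 0.32 (edgeR, adjusted p = 0.301), and 0.57 with pan-T cell scaling (edgeR, adjusted p = 0.142). Without replicate 2 of tumor of control mice, Ccr7 was called lower in tumor of MHCII-deleted mice (log2 -0.65, edgeR, adjusted p = 0.0224).

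Per 1000 counts of pan-T cell genes, Ccr7 had 108 and 114 counts in tumor of MHCII-deleted mice and 75.1, 46.9 and 82.0 in tumor of control mice, against 44.4 and 34.3 in LN of MHCII-deleted mice and 33.9, 38.7 and 34.6 in LN of control mice. Tumor and LN did not overlap on this scale, and the tumor libraries of MHCII-deleted mice were the highest. Scaled in this way Ccr7 was higher in tumor than in LN of MHCII-deleted mice (log2 1.495, edgeR, adjusted p = 0.000258) and higher in tumor of MHCII-deleted than of control mice (log2 0.71, edgeR, adjusted p = 0.0106), the reverse of the sign under the main scaling. The adjusted p over the 20 alternatives ran from 0.0106 to 0.5475 between the genotypes in tumor, from 0.000258 to 0.88 between tumor and LN of MHCII-deleted mice and from 0.000166 to 0.918 between tumor and LN of control mice. CCR7 is also a receptor of mature dendritic cells. Of their markers, Fscn1 had 180 and 361 CPM in tumor of MHCII-deleted mice, 29.7 to 115 CPM in control tumor and no more than 3.18 CPM in any LN library, while the group means of Flt3 did not exceed 1.56 CPM. The 10 dendritic cell markers summed to 217 and 384 CPM in tumor of MHCII-deleted mice and 99.4 to 165 CPM in tumor of control mice. Their LN sums were 7.43 and 10.6 CPM in MHCII-deleted mice and 5.15 to 9.59 CPM in control mice. Fscn1 alone was most of the sum in tumor of MHCII-deleted mice. It was not called between the genotypes in tumor (log2 1.78 ± 0.66, edgeR, adjusted p = 0.0715). Only Xcr1 of the list was called there, lower in MHCII-deleted mice (log2 -1.62 ± 0.39, edgeR, adjusted p = 0.0136). With pan-T cell scaling 1 of the list was higher and 0 lower. The part of these markers in the Ccr7 values was not tested.

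The other genes of LN entry and positioning, 11 of 12 tested, did not share one direction in tumor. In MHCII-deleted mice 2 were higher and 6 lower in tumor than in LN (median log2 -1.05), which became 4 higher and 2 lower with pan-T cell scaling. In control mice 3 were higher and 4 lower (median -0.17). The log2 change of Cxcr5, the receptor for B cell follicles, between tumor and LN was -2.97 ± 0.25 in MHCII-deleted mice and -2.68 ± 0.20 in control mice (edgeR, adjusted p = 1.58e-05 and 8.19e-06). Cxcr4, the receptor for CXCL12, was higher in tumor of control mice by 3.48 ± 0.24 (edgeR, adjusted p = 4.45e-06). The genotype comparison in tumor gave 0 higher and 6 lower (median -1.07, against 0.10), with 0 higher also at an unadjusted p under 0.05 and by DESeq2 and limma-voom. The integrin chains Itgb7, Itgb2 and Itgal and the oxysterol receptor Gpr183 stood at -1.20 ± 0.10, -0.97 ± 0.09, -1.07 ± 0.10 and -1.34 ± 0.14 (edgeR, adjusted p = 0.000144, 0.00019, 0.000199 and 0.000294). With pan-T cell scaling these 4 lay between -0.20 and 0.18 with none called, and the list had 3 higher and 0 lower. In LN edgeR called 0 between the genotypes, while 1 was higher and 2 lower at an unadjusted p under 0.05, and DESeq2 and limma-voom each called 2 lower.

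Klf2 (ENSMUSG00000055148, chromosome 8, 72319033 to 72321656, plus strand), the activator of S1pr1, had 27.2 and 285 CPM in tumor of MHCII-deleted mice and 86.7, 37.4 and 37.3 CPM in tumor of control mice. In LN it had 479 and 383 CPM in MHCII-deleted mice and 27.7, 34.0 and 22.3 CPM in control mice. Both LN libraries of MHCII-deleted mice stood above all others, and the tumor libraries of those mice lay at opposite ends of the tumor range. In LN it was 15.4-fold higher in MHCII-deleted mice (log2 3.94 ± 0.77, edgeR, adjusted p = 0.0497), against 1.07% of genes called higher. The other changes did not pass. They were 1.54 ± 0.73 between the genotypes in tumor (edgeR, adjusted p = 0.141) and -2.40 ± 1.06 for the difference of genotype effects (edgeR, adjusted p = 0.179). Between tumor and LN they were -1.46 ± 0.82 in MHCII-deleted mice (edgeR, adjusted p = 0.172) and 0.94 ± 0.67 in control mice (edgeR, adjusted p = 0.292). Replicate 2 of tumor of MHCII-deleted mice decided several of these. Without it the change between tumor and LN of those mice was -3.99 (edgeR, adjusted p = 0.000538) and the difference of genotype effects -4.93 (edgeR, adjusted p = 0.00202), and without replicate 1 of that group the genotype change in tumor was 2.404 (edgeR, adjusted p = 0.00375). That genotype change turned to -0.985 without replicate 2 (edgeR, adjusted p = 0.166) and to -3.81 with the mean level of GC-rich genes as a covariate (edgeR, adjusted p = 0.131). Over all alternatives the adjusted p ran from 0.000538 to 0.702, from 0.00202 to 0.361 and from 0.00375 to 0.446 for these 3 changes. The change between tumor and LN of control mice was called in a fit of the control libraries alone (0.95, edgeR, adjusted p = 0.0489; range 0.0391 to 0.687), and its sign turned with the same covariate (-6.25, edgeR, adjusted p = 0.114). Pan-T cell scaling called the genotype change in tumor (2.58, edgeR, adjusted p = 0.00609). S1pr1, which KLF2 is known to activate, was not called between the genotypes in LN.

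The call for Klf2 in LN was marginal and moved with the GC content of transcripts. It was lost, at 3.77 to 4.12 and adjusted p of 0.0602 to 0.265 (edgeR), without any 1 of the 5 LN libraries and without replicate 2 or 3 of tumor of control mice. RLE size factors (3.899, edgeR, adjusted p = 0.0591), no filter on low counts (3.94, edgeR, adjusted p = 0.143) and the replicate number as a block (3.78, edgeR, adjusted p = 0.223) also ended it. Over the 20 alternatives its adjusted p ran from 4.21e-06 to 1. Of the 149 genes called higher in LN of MHCII-deleted mice, 147 (98.7%) have a transcript window above 75% GC, against 45.3% of all tested genes and 0 of the 5 called lower. The median log2 change of tested genes in LN was 0.57 for windows of 86% GC or more and 0.13 for 81 to 85%, and between -0.10 and -0.01 in each lower range. A smooth curve of log2 level on window GC, read at the window of Klf2, stood at -0.02 and 0.72 in tumor of MHCII-deleted mice and at 0.07, -0.17 and -0.05 in tumor of control mice. In LN it stood at 0.30 and 0.29 in MHCII-deleted mice and at -0.37, -0.34 and -0.45 in control mice. The highest value belonged to the tumor library of MHCII-deleted mice in which Klf2 was high. The LN libraries of control mice had the lowest values, and their Klf2 levels lay below those of all other libraries except replicate 1 of tumor of MHCII-deleted mice.

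With that curve as an offset in the fit, Klf2 kept 3.27 ± 0.60 of its log2 change in LN but was no longer called (edgeR, adjusted p = 0.0683), and 4 genes in all were called. With the mean level of GC-rich genes per library as a covariate, the change was 0.38 ± 0.92 (edgeR, adjusted p = 1). Of the variance of that covariate 97.3% lay between the 4 groups, so GC-rich transcripts as a class and the groups cannot be told apart in that fit. It also ended the calls of S1pr1, Ccr7 and Cd69 between tumor and LN of control mice, at -1.26, 0.29 and -0.53 (edgeR, adjusted p = 0.269, 0.918 and 0.485), and those of S1pr1 and S1pr4 between the genotypes in tumor, at -1.13 and -1.26 (edgeR, adjusted p = 0.105 and 0.0609). In MHCII-deleted mice it ended the calls of S1pr1, S1pr4 and Klf3 between tumor and LN (edgeR, adjusted p = 0.0803, 0.211 and 0.351). The offset kept every call of S1pr1, S1pr4, Cd69 and Ccr7 between tumor and LN and between the genotypes in tumor, as the plot of fold changes under 3 scalings shows.

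**Figure D3:**
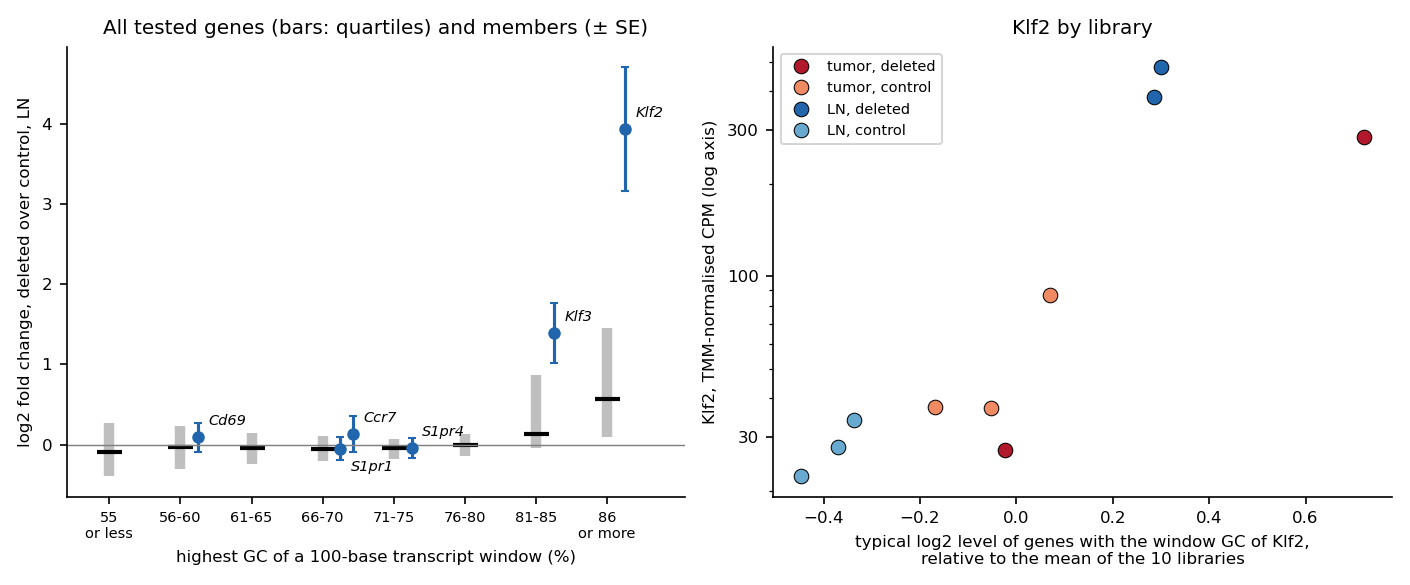
Left, log2 fold change between MHCII-deleted and control mice in LN for all tested genes by their most GC-rich 100-base window (black lines are medians, grey bars the quartiles) and for the 6 genes (points ± SE). Right, Klf2 CPM on a log axis against the curve of level on window GC read at the Klf2 window, with 1 point per library. The median stood at 0.57 in the most GC-rich range, where Klf2 stood at 3.94, and the 4 less GC-rich members lay between -0.05 and 0.13.

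Klf3 (ENSMUSG00000029178, chromosome 5, 64803388 to 64832901, plus strand), the repressor, had 55.4 and 83.7 CPM in tumor of MHCII-deleted mice and 106, 37.5 and 44.7 CPM in tumor of control mice. In LN it had 280.4 and 279 CPM in MHCII-deleted mice and 105, 104 and 110 CPM in control mice. The LN groups did not overlap, and replicate 1 of tumor of control mice stood apart from the other libraries of its group, at the level of LN of control mice. In MHCII-deleted mice Klf3 was 4.02-fold lower in tumor than in LN (log2 -2.01 ± 0.43, edgeR, adjusted p = 0.0044), which became -0.78 with pan-T cell scaling (edgeR, adjusted p = 0.0939; range over 20 alternatives 8.87e-06 to 0.351). The change in LN between the genotypes, 1.39 ± 0.37, was not called (edgeR, adjusted p = 0.112), although it was called in a fit of the LN libraries alone (1.403, edgeR, adjusted p = 1.17e-05; range over 20 alternatives 1.17e-05 to 0.941). The remaining changes were -0.76 ± 0.34 between tumor and LN of control mice (edgeR, adjusted p = 0.104), 0.15 ± 0.38 between the genotypes in tumor (edgeR, adjusted p = 0.801) and -1.25 ± 0.54 for the difference of genotype effects (edgeR, adjusted p = 0.173). Without replicate 1 of tumor of control mice, Klf3 was lower in tumor than in LN of control mice (log2 -1.38, edgeR, adjusted p = 0.000464; range over 20 alternatives 0.000464 to 0.657) and higher in tumor of MHCII-deleted mice (log2 0.76, edgeR, adjusted p = 0.0186; range 0.00743 to 0.987). The lowest adjusted p of that range came with pan-T cell scaling (log2 1.28). Klf3 overlaps an annotated noncoding gene on each strand, Gm20033 and C230096K16Rik, so reads of these could be counted with it unless strand was used.

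The log2 ratio of Klf2 to Klf3 within a library, both GC-rich, was -1.03 and 1.77 in tumor of MHCII-deleted mice and -0.29, -0.004 and -0.26 in tumor of control mice. In LN it was 0.77 and 0.455 in MHCII-deleted mice and -1.925, -1.61 and -2.31 in control mice. The LN groups did not overlap, and the tumor libraries of MHCII-deleted mice stood on either side of the others of tumor.

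Among 14 other KLF genes and the CtBP corepressors that KLF3 recruits, 8 were higher and 1 lower in tumor than in LN of control mice (median log2 1.81, against 0.08). Klf6, an early response member, averaged 763 CPM in tumor of MHCII-deleted mice, 1316 CPM in tumor of control mice, 336 CPM in LN of MHCII-deleted mice and 249.95 CPM in LN of control mice. It was higher in tumor of control mice by 2.397 ± 0.14 (edgeR, adjusted p = 1.59e-06). Klf11 and Ctbp2 were higher there by 2.28 ± 0.24 and 4.06 ± 0.43 (edgeR, adjusted p = 7.4e-05 and 7.1e-05). In MHCII-deleted mice 5 were higher and 2 lower in tumor (median 0.71), or 8 higher and 0 lower with pan-T cell scaling. Klf7 was lower by 1.13 ± 0.22 on the log2 scale (edgeR, adjusted p = 0.00225), a call that scaling to the pan-T cell genes ended (0.13). In tumor 2 were higher in MHCII-deleted mice, Ctbp2 by 1.72 ± 0.40 and Klf9 by 1.71 ± 0.47 (edgeR, adjusted p = 0.0114 and 0.023), and Klf6 was lower by 0.79 ± 0.15 (edgeR, adjusted p = 0.00448), which turned to a rise of 0.34 with pan-T cell scaling. That scaling gave 10 higher and 0 lower in tumor. In LN 2 were higher in MHCII-deleted mice and 0 lower (0 lower also at an unadjusted p under 0.05 and by DESeq2 and limma-voom), Klf16 by 2.60 ± 0.41 and Ctbp1 by 2.91 ± 0.56 (edgeR, adjusted p = 0.0436 and 0.0497). With the GC offset Klf16 and Ctbp1 kept 1.97 and 2.37 of their log2 changes but lost their calls (edgeR, adjusted p = 0.0683 each), as Klf2 did.

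The FOXO1 and KLF2 axis list holds 17 genes upstream or downstream of KLF2, and it shares Itgb7 with the LN entry list. In control mice 3 were higher and 4 lower in tumor than in LN (median log2 0.23), and among the lower were Foxp1, which restrains activation of T cells, Pik3ip1, an inhibitor of PI3 kinase, and Tcf7, which encodes TCF1. In MHCII-deleted mice these 3 stood at -1.70 ± 0.14, -2.39 ± 0.25 and -2.59 ± 0.31 (edgeR, adjusted p = 1.09e-05, 4.88e-05 and 0.000151). In control mice they stood at -1.51 ± 0.11, -2.53 ± 0.20 and -2.53 ± 0.26 (edgeR, adjusted p = 6.23e-06, 1.17e-05 and 6.46e-05). Scaling to the pan-T cell genes left these 3 lower in both kinds of mice. In MHCII-deleted mice 2 were higher and 7 lower (median -0.51), or 11 higher and 4 lower with pan-T cell scaling. The genotypes in tumor gave 1 higher and 3 lower (median 0.18, against 0.10). The kinase Akt1 was higher by 2.71 ± 0.59, while Itgb7, the cell cycle inhibitor Cdkn1b and the interleukin 7 receptor Il7r were at -1.20 ± 0.10, -0.56 ± 0.14 and -0.53 ± 0.17 (edgeR, adjusted p = 0.00864, 0.000144, 0.0144 and 0.0375). With pan-T cell scaling this became 16 higher and 0 lower. In LN the 1 called gene was Mef2d, a factor of the MAP kinase route to Klf2, higher by 1.55 ± 0.26 in MHCII-deleted mice (edgeR, adjusted p = 0.0436) and at 0.81 with the GC offset (edgeR, adjusted p = 0.0683).

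The coupling list, 15 genes taken to couple chemotactic receptors to movement or switch them off, shares Rgs1, Rgs2 and Rgs16 with the retention list. In control mice 4 were higher and 3 lower in tumor than in LN (median log2 0.02), with Gna13, a G protein subunit behind S1PR2, higher by 1.61 ± 0.11 and Rgs16 by 2.30 ± 0.24 (edgeR, adjusted p = 4.39e-06 and 6.11e-05). In MHCII-deleted mice 4 were higher and 7 lower (median -0.64). Among the lower were the guanine nucleotide exchange factor Arhgef1, the GTPase Rac2 and the actin regulator Coro1a, at -1.36 ± 0.11, -1.29 ± 0.11 and -1.53 ± 0.13 (edgeR, adjusted p = 9.8e-06, 1.57e-05 and 1.62e-05). With pan-T cell scaling these stood at -0.11, -0.05 and -0.30, with Coro1a still called, and the list had 8 higher and 1 lower. In tumor 1 was higher and 10 lower in MHCII-deleted mice (median -0.83, against 0.10). Rac2, Coro1a and the inhibitory G protein Gnai2 stood at -1.26 ± 0.10, -1.16 ± 0.12 and -0.80 ± 0.08 (edgeR, adjusted p = 0.000144, 0.000277 and 0.000221). That too depended on scaling, with 7 higher and 0 lower relative to the pan-T cell genes. In LN edgeR called 0 between the genotypes, while 2 were higher at an unadjusted p under 0.05, limma-voom called 1 and DESeq2 0.

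**Figure D4:**
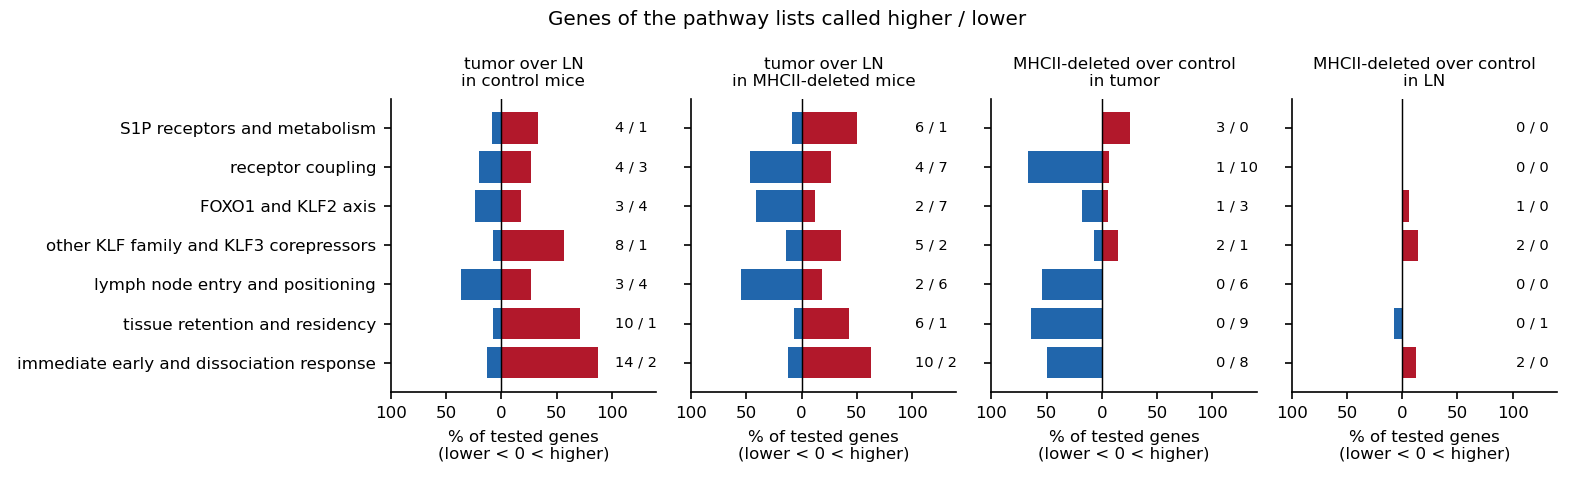
Share of tested genes in each pathway list called higher (red, right of 0) or lower (blue, left of 0) in 4 comparisons under the main scaling, with the counts higher / lower beside each bar. The immediate early list had 14 of 16 higher in tumor of control mice, and between the genotypes in tumor 5 of the 7 lists had more genes lower than higher, the S1P and KLF lists being the others.

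**Figure D5:**
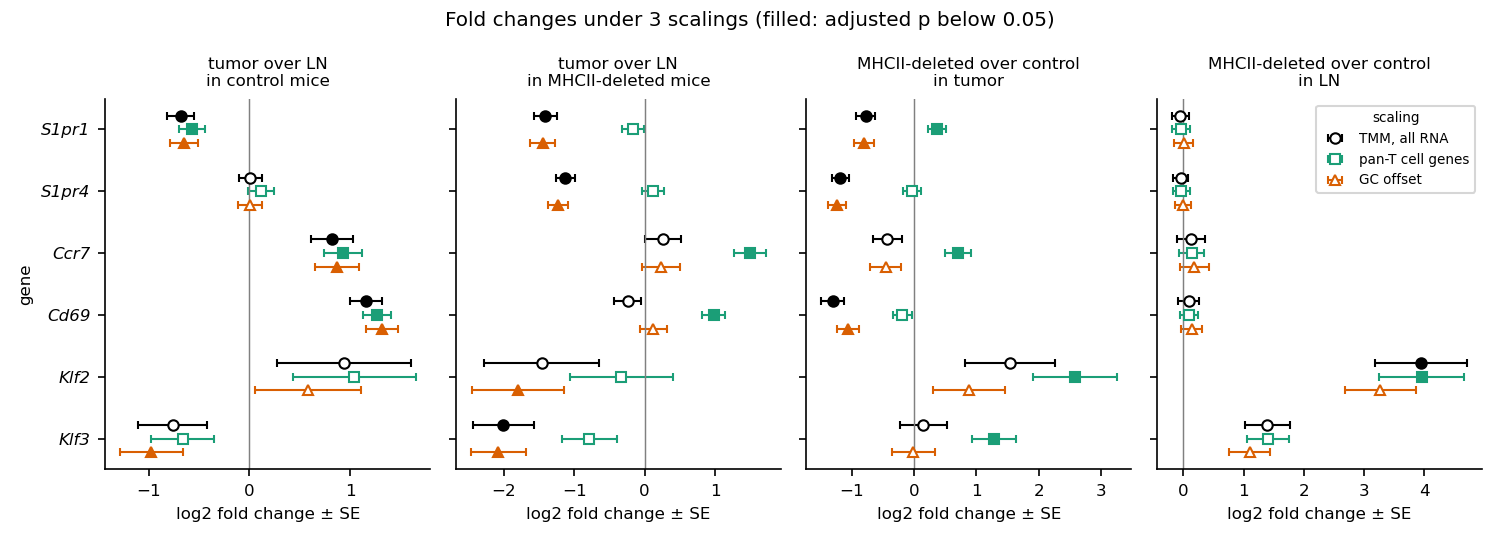
Log2 fold changes ± SE of the 6 genes in 4 comparisons under TMM scaling, scaling to the pan-T cell genes and a GC offset, filled where the adjusted p was below 0.05. Between tumor and LN of control mice the calls of S1pr1, Ccr7 and Cd69 held under all 3 scalings. In both panels that involve tumor of MHCII-deleted mice, scaling to the pan-T cell genes moved all 6 genes upward, S1pr1 to 0.37 between the genotypes.

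Scaling also moved the direction of calls over all genes. Between tumor and LN of MHCII-deleted mice 54.8% of called genes were higher under TMM and 96.9% relative to the pan-T cell genes. The shares for the genotypes in tumor were 52.3% and 99.6%, and between tumor and LN of control mice 58.6% and 71.7% (73.9% with the GC covariate). For the genotypes in LN 96.8% were higher under TMM and 75% with the GC offset. The difference of genotype effects had 38.6% higher under TMM, 50.7% with DESeq2 and 99.7% relative to the pan-T cell genes. That difference was called for 10.7% of tested genes (4.14% higher, 6.57% lower) and for 2 of the 6 members, S1pr4 and Cd69, both lower and neither called relative to the pan-T cell genes.

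Per kilobase of exon, the order of levels in LN of control mice was Ccr7 at 341 ± 32.2 RPKM, S1pr1 at 279 ± 24.4, S1pr4 at 53.7 ± 2.67, Cd69 at 30.3 ± 2.29, Klf2 at 15.2 ± 3.18 and Klf3 at 9.48 ± 0.30 (SD, n = 3). No neighbours in that order overlapped. In tumor of MHCII-deleted mice the order was Ccr7 at 447 ± 77.6 RPKM, S1pr1 at 101.5 ± 12.6, Klf2 at 84.6 ± 98.8, Cd69 at 27.3 ± 8.66, S1pr4 at 23.8 ± 1.49 and Klf3 at 6.18 ± 1.78 (SD, n = 2), and there Klf2 overlapped S1pr1, Cd69 and S1pr4, and Cd69 overlapped S1pr4. In tumor of control mice Ccr7 stood at 604 ± 171 RPKM, S1pr1 at 174 ± 30.9, Cd69 at 67.6 ± 6.67, S1pr4 at 54.1 ± 7.64, Klf2 at 29.1 ± 15.4 and Klf3 at 5.58 ± 3.36 (SD, n = 3). Cd69 and S1pr4 almost met there, at 62.6 RPKM in the lowest library for Cd69 and 62.5 RPKM in the highest for S1pr4. In LN of MHCII-deleted mice Ccr7 stood at 373 ± 69.9 RPKM, S1pr1 at 270 ± 13.4, Klf2 at 233 ± 36.7, S1pr4 at 52.0 ± 2.21, Cd69 at 32.2 ± 3.199 and Klf3 at 24.9 ± 0.08 (SD, n = 2), so Klf2 held the third place there, with 259 RPKM in its higher library against 260.2 RPKM in the lower one of S1pr1. RPKM was taken over the union of exons, which for Klf3 and Cd69 (11243 and 6509 bases) is longer than their main transcripts (5221 and 1687 bases). Over the main transcripts the values of Klf3 and Cd69 would be higher, so these orders hold for exon unions only.

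Across the 10 libraries, the members did not form a single pattern. On log2 CPM, Pearson's r was 0.78 between S1pr1 and S1pr4, 0.68 between Klf2 and Klf3 and 0.66 between Ccr7 and Cd69, but 0.05 between S1pr1 and Klf2 and -0.02 between S1pr1 and Cd69. The points fall into the 4 groups and share library depth and the amount of T cell RNA, so these values are descriptions. Among 8678 genes of at least 10 CPM, the most similar to S1pr1 were Lipa, Lbr and Resf1 (r of 0.996, 0.988 and 0.988), and to S1pr4 Agap2, Tmem50a and the T cell adaptor Lat (r of 0.989, 0.988 and 0.985). The most similar to Cd69 were Socs2, Neurl3 and Ifnar1 (r of 0.99, 0.965 and 0.964). Socs2 is a feedback inhibitor of cytokine signals. It stood at 15.5 ± 6.06 CPM in tumor of MHCII-deleted mice (SD, n = 2) and 37.9 ± 1.69 CPM in tumor of control mice (SD, n = 3). In LN it stood at 17.5 ± 1.09 CPM in MHCII-deleted mice (SD, n = 2) and 15.5 ± 1.26 CPM in control mice (SD, n = 3). Ccr7 had 0 genes with r above 0.95, and its closest were Mcoln1, Plcxd2 and Pdp2 (r of 0.916, 0.898 and 0.881). Klf3 was closest to Rap1gds1, Asap1 and Wdr82 (r of 0.971, 0.969 and 0.968), whose windows reach 84%, 85% and 82% GC. Klf2 was closest to Suds3, Csnk1g3 and Ppp3ca (r of 0.993, 0.989 and 0.989), with windows of 86%, 84% and 83% GC. Of the 87 genes with r above 0.95 to Klf2, 86 (98.9%) have a window above 75% GC, against 49% of the candidates.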

How the data were processed

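RNA of Tregs from 10 libraries in 4 groups was sequenced in single reads of 50 bases from SMARTer Ultra Low cDNA and Nextera XT libraries, per the labels' protocols. The authors deposited raw counts per gene without normalization; the submitters' processing notes give the build GRCm38 and list featureCounts 1.4.6, STAR 2.4 and CASAVA 1.8.2, while the annotation release and the strand setting are not given in the sources used here. GENCODE M21 (GRCm38) gave symbols, exon unions and transcript windows for all 21556 gene rows.

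Counts were filtered with filterByExpr (minimum count 10, 13920 genes kept), scaled by TMM and fitted over all 4 groups with edgeR 4.0.16 (R 4.3.3) by the robust quasi-likelihood test, with Benjamini-Hochberg adjustment over all tested genes and a threshold of 0.05. The SE is the log2 change divided by the square root of the F statistic. RPKM used the exon union and correlations log2 CPM with a prior count of 2. A GC-rich gene has a 100-base transcript window above 75% GC. The GC offset is a lowess curve of level on window GC in each library, and the GC covariate is the mean level of GC-rich genes in each library.

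Alternatives were RLE size factors, DESeq2 1.42.0, limma-voom 3.58.1 with sample quality weights, no filter, no robust option, a replicate block, scaling to pan-T cell genes, the GC covariate, the GC offset, only the groups compared, and each library left out in turn. Of these fits only the main edgeR fit was run on simulated counts, and only for the genotypes in tumor. The simulation held no difference between groups in GC bias or in T cell RNA, so it cannot test the scaling against these. Replicates differed by far more than sampling noise, with a mean chi-square per gene of 30.7 to 167, so no library was counted as a repeat.

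The members and gene lists were chosen with earlier results of these data known. Named beside the members are up to 4 called genes with the smallest p per pathway list and comparison, and the 3 genes most like each member. Cdh5 and the changes of single lymphatic endothelial markers were added after their values were seen.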

Additional observations from a re-analysis of the deposited data

Results flagged for a closer look

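The effect of the deletion in tumor minus its effect in LN was examined with edgeR's quasi-likelihood test (Benjamini-Hochberg adjusted p under 0.05). Under the main scaling it passed for 29 of the members and the pathway genes named for any comparison. Over all tested genes 10.7% passed. Pathway genes were named by smallest p, in this comparison among others, so the 29 cannot be set against that share. Among the 6 members, those that passed were Cd69 at -1.40 ± 0.25 and S1pr4 at -1.13 ± 0.18 on the log2 scale (edgeR, adjusted p = 0.0099 and 0.00625). Of the S1P genes, S1pr2 stood at 0.86. Of the coupling genes, Rac2 stood at -1.19, Rgs1 at -1.71, Arhgef1 at -0.98, Gnai2 at -0.78, Gna13 at -0.84 and Coro1a at -1.11. Of the FOXO1 and KLF2 axis, Itgb7 stood at -1.09, Cdkn1b at -0.84 and Mef2d at -1.45. Klf6 and Klf16 stood at -1.21 and -2.35. Of the LN entry genes, Itgb2 stood at -0.9999, Itgal at -1.07, Cxcr4 at -1.96 and Gpr183 at -0.76. Of the retention genes, Rgs2 stood at -1.44, Ccr8 at -1.18, Rgs16 at -1.75 and Bhlhe40 at -0.61. Of the immediate early genes, Junb stood at -1.52, Dusp1 at -1.73, Ier2 at -1.29, Nr4a1 at -1.17, Egr3 at -1.62, Zfp36 at -1.16 and Btg2 at -1.10.

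With libraries scaled to the pan-T cell genes, S1pr2 (2.02, edgeR, adjusted p = 0.000688) and Rgs1 (-0.59, edgeR, adjusted p = 0.0215) kept their calls, Bhlhe40 was called with the opposite sign (0.53, edgeR, adjusted p = 0.0311), and the other 26 genes lost theirs. With the GC offset Gnai2 (-0.53, edgeR, adjusted p = 0.0934) and Gna13 (-0.57, edgeR, adjusted p = 0.172) lost their calls and the other 27 kept theirs. The sum of the pan-T cell genes in tumor was 7942 ± 1110 CPM in MHCII-deleted mice (SD, n = 2) and 17524 ± 294 CPM in control mice (SD, n = 3), and its part in these differences was not tested beyond that scaling.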

How the results depend on the processing

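The cause of each change below was not tested, except that scaling to pan-T cell genes and the GC fits change the scale by construction. Between tumor and LN of control mice 5409 genes and 3 members were called, and the GC covariate left 330 genes and 0 members. In MHCII-deleted mice 6175 genes and 3 members were called between tumor and LN, against 9428 genes with pan-T cell scaling and 997 with the GC covariate. For the genotypes in tumor 3999 genes and 3 members were called, against 9500 genes with pan-T cell scaling, 728 genes and 1 member with the GC covariate, and 2519 genes with only the tumor libraries. For the genotypes in LN 154 genes and 1 member were called. These counts became 23 and 0 with RLE size factors, 659 and 2 with DESeq2, 782 and 2 with limma-voom, 4 and 0 with the GC offset, 0 and 0 with the GC covariate, and 806 and 2 with only the LN libraries. Pan-T cell scaling called 400 genes there, and the fit without a filter called 0 members. The difference of genotype effects was called for 1491 genes and 2 members, against 2487 genes with DESeq2, 6453 genes and 0 members with pan-T cell scaling, and 4 members with the GC covariate. No fit with only the groups compared applies to it. With 1 library left out, the counts ran from 4157 to 5671 genes (3 to 4 members) between tumor and LN of control mice, 4293 to 6326 (3 to 5) in MHCII-deleted mice, 2745 to 3695 (3 to 4) for the genotypes in tumor, 0 to 611 (0 to 2) in LN and 527 to 2281 (2 to 4) for the difference of effects. A group left with 1 library is assumed to vary like the others. Signs turned for Cd69 between tumor and LN of control mice with the GC covariate (-0.53). With pan-T cell scaling they turned for S1pr4 (0.12) and Cd69 (0.98) between tumor and LN of MHCII-deleted mice, for S1pr1 (0.37) and Ccr7 (0.71) between the genotypes in tumor, and for S1pr4 in the difference of effects (0.0028). Among member changes called in neither fit, signs turned in 23 more cases. The main change was under 0.2 in size in 15 of them. The other 8 were S1pr1 (0.40) and Ccr7 (0.57) in the difference of effects with pan-T cell scaling, Klf2 between tumor and LN of control mice (-6.25) and between the genotypes in tumor (-3.81) and Ccr7 between tumor and LN of MHCII-deleted mice (-0.35) with the GC covariate, Cd69 in that comparison with the GC offset (0.12) or without replicate 1 of tumor of MHCII-deleted mice (0.049), and Klf2 between the genotypes in tumor without replicate 2 of that group (-0.985). Depth did not limit the members, whose lowest count in any library was 668.

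With the replicate number as a block, 4903, 5737, 3144, 0 and 1126 genes and 3, 3, 3, 0 and 2 members were called, in the order above. The labels do not say what a number shares, and deviations of libraries with the same number correlated at -0.148 to 0.046, so the numbers were not taken as pairs. The block ended the call of Klf2 in LN (3.78, edgeR, adjusted p = 0.223) and no other call of a member.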
